A study of Rattus norvegicus with 12 samples.

Results

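The comparison described here is that of rat neonatal cardiac fibroblasts given Yap siRNA with the same cells given negative siRNA, 6 of the 12 RNA-seq libraries of the series, 3 in each group. Every gene with a mean normalized count of at least 10 over the 12 libraries was included, which left 11871 of 12271 genes. The cells were primary cultures from hearts of rats at postnatal day 2, with a separate litter for each replicate, transfected for 48 h with 25 nM siRNA. The sample records give 15% fetal bovine serum for all libraries, while the study's methods give a lower percentage. For RNA those methods also place collection 48 h after a change of medium that followed transfection. All groups, the controls included, went through transfection, and the negative siRNA libraries received universal control siRNAs. The other 6 libraries received Wwtr1 siRNA or siRNAs against both genes. They serve here only to show where the response to Yap siRNA differed from that to its paralog and whether it recurred on a Wwtr1-depleted background. The study lists 2 siRNAs against Yap, and its methods do not state whether they were given as a pool. A change made by Yap loss and one made by the siRNAs themselves cannot be told apart.

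Yap1 (Yap) is a transcriptional co-activator with no DNA-binding domain of its own. It acts mainly through TEAD factors, and the Hippo kinases Lats1 and Lats2 phosphorylate it and keep it in the cytoplasm. Wwtr1, also called Taz, is its close paralog. In fibroblasts both respond to stiffness, adhesion and cell shape, and Ccn1, Ccn2, Ankrd1 and Lats2 are among the genes commonly used to read out their activity.

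The short sequence CATTCC, with its reverse complement GGAATG, is the core that TEAD factors bind, and it was looked for in the 250 bases before each RefSeq start site on both strands. It was present in 4037 of 33469 such windows in the GRCr8 rat assembly, 12.1%, and in 993 of 9855 windows of the genes tested here, 10.1%. In the Yap signature as tested, 5 of 14 windows hold it (35.7%). The signature is made of genes used to read out Yap, so nothing is read from its share. Of the 8 genes of the Yap signature that fell with Yap siRNA (below), 6 have a window in the RefSeq table and 4 of these hold the sequence: Ccn2, Ccn1, Amotl2 and Nuak2. The windows of Fjx1 and Tgfb2 do not hold it, and Lats2 and Ankrd1 have no window. Among all genes that fell outside the interferon list it was found in 28 of 189 windows, 14.8%, and among those that rose in 23 of 207 windows, 11.1%. These are counts of letters and not of bound sites. Windows of the genes below are printed 5′ to 3′ on the gene's strand with the motif in capitals, for the called signature genes that hold it and for Ajuba. They are a choice, since windows of other named genes such as Myh1, Lims2 and Lamc1, and of Cpt1a and Nr4a1 among the rises, hold it too. Ccn2 is shown from chr1:22624615-22624864 (minus strand), Ccn1 from chr2:237225690-237225939 (minus strand), Amotl2 from chr8:112182376-112182625 (plus strand), Nuak2 from chr13:46305756-46306005 (plus strand) and Ajuba, a Hippo pathway gene outside the signature, from chr15:32000043-32000292 (minus strand).
Ccn2: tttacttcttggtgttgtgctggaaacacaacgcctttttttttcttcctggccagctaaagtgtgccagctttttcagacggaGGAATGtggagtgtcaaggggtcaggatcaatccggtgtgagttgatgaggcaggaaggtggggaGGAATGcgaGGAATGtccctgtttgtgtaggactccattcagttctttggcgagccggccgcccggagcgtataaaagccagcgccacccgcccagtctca
Ccn1: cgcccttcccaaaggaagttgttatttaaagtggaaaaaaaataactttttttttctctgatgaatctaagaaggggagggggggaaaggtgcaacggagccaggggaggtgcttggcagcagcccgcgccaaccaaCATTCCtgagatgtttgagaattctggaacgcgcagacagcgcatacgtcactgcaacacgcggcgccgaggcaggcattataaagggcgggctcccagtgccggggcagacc
Amotl2: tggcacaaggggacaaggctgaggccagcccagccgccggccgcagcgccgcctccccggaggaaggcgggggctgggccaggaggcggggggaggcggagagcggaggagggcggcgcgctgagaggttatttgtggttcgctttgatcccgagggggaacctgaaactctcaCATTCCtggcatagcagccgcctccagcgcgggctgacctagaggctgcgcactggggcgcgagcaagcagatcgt
Nuak2: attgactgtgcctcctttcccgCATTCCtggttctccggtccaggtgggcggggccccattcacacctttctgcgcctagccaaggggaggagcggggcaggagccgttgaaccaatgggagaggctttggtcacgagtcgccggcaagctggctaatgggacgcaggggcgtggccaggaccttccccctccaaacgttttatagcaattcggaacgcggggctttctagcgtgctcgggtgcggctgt
Ajuba: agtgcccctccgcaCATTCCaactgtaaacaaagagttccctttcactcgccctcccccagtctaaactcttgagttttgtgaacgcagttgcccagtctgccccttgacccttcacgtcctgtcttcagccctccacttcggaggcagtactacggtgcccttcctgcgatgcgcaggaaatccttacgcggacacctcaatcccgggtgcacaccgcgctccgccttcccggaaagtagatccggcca
The Ccn2 window holds the motif 3 times, at 166, 101 and 92 bases before the start site, and the other windows hold it once.

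The reads recovered from the normalized counts summed to between 33890000 and 36280000 a library in the negative and Yap siRNA groups. Fibroblast markers dominated the cell type lists, with a summed level of 2975000 to 3444000 in the negative and 3608000 to 3723000 in the Yap siRNA libraries. Markers of other cells were also read. Cardiomyocyte markers summed to 64560 to 104400 against 71850 to 113800, and macrophage and leukocyte markers to 39670 to 58960 against 34950 to 50990. None of the 12 fibroblast, 24 cardiomyocyte, 23 macrophage, 18 endothelial or 7 Schwann cell and neuron markers tested was called in the limma fit from which calls are given. At an unadjusted p under 0.05 the counts were 1, 2, 0, 5 and 1, and edgeR called none of them. DESeq2 called 2 endothelial and 1 macrophage marker. With a pseudocount of 10 limma called 1 macrophage marker. The replicate block over 12 libraries called 1 cardiomyocyte and 2 endothelial markers higher. With the 6 libraries and the replicate block, 6 fibroblast markers were called higher and 1 lower, 8 and 2 of the cardiomyocyte, 1 and 7 of the macrophage, 4 and 1 of the endothelial and 1 and 2 of the Schwann cell and neuron markers. In each of the 3 same-numbered pairs the fibroblast and cardiomyocyte sums were higher and the macrophage sum lower with Yap siRNA. The endothelial sum was higher in every Yap siRNA library (32290 to 38690) than in every negative siRNA library (27340 to 32130), and the smooth muscle and pericyte sum was lower (33090 to 47130 against 49730 to 69600). The part of these cells in the results below was not tested. In bulk RNA, fewer cells of a type and less RNA per cell cannot be told apart.

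Yap siRNA lowered its target, and no change in the paralog passed the test. Yap1 was read at 3042, 3776 and 2984 in negative siRNA replicates 1, 2 and 3 and at 532, 576 and 625 in the Yap siRNA libraries. The groups stood far apart, and the log2 change was -2.49 ± 0.22 (SE, adjusted p = 0.000271, limma). The change was called in all 12 fits that left out 1 library. Wwtr1 was read at 2364, 2565 and 2280 with negative siRNA and at 2134, 2500 and 2374 with Yap siRNA. These ranges overlap, and the log2 change was -0.04 ± 0.13 (adjusted p = 0.902). In the libraries labelled as Wwtr1 siRNA, Yap1 was at its control level and Wwtr1 was low, as the plot of 8 genes by library shows.

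**Figure D1:**
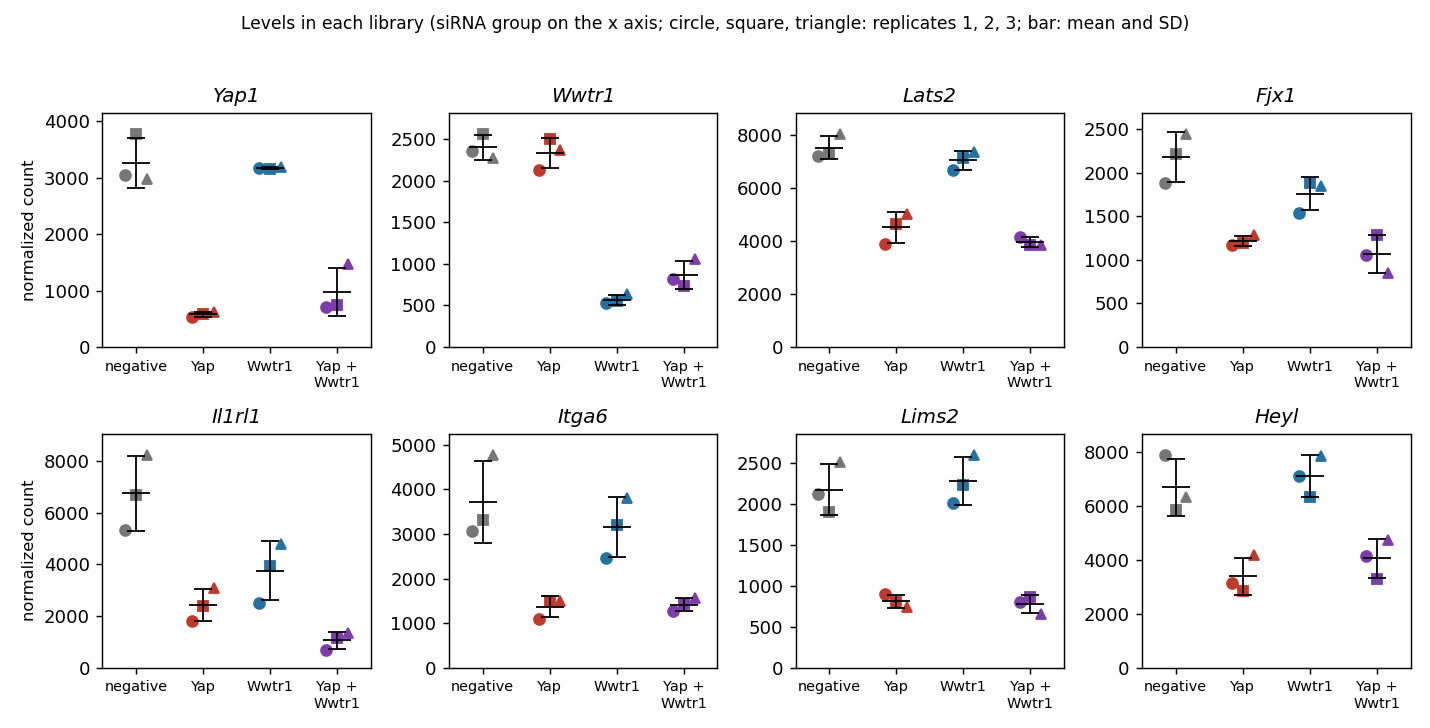
Normalized count (y axis, from 0) of Yap1, Wwtr1, Lats2, Fjx1, Il1rl1, Itga6, Lims2 and Heyl in each of the 12 libraries by siRNA group, with replicates 1, 2 and 3 as circle, square and triangle and the mean and SD of 3 libraries in black. For the genes other than Wwtr1, every Yap siRNA library lies below every negative siRNA library, and Yap1 drops from between 2984 and 3776 to between 532 and 625.

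Of the 11871 genes, 570 (4.8%) passed an adjusted p of 0.05, of which 359 (3.02%) were higher and 211 (1.78%) lower. Interferon-stimulated genes made up a large share of the rises: 90 of the 165 genes tested from that list were higher and 1 was lower. Their 91 calls became 29 and 38 without Yap siRNA replicates 1 and 2, and 57 and 38 without negative siRNA replicates 1 and 3. They are set apart here. Outside the list 479 of 11706 genes (4.09%) were called, 269 higher (2.3%) and 210 lower (1.79%). Most of these changes were small. The median size was 0.523 on the log2 scale, and 61 genes rose and 12 fell by more than 2-fold. Of the 269 rises 246, and of the 210 falls 207, averaged at least 100 and did not overlap between the groups. Lack of overlap, given for single genes below, therefore adds little to a call. Over all genes tested 13.5% were higher and 12.6% lower without overlap. The list of interferon genes is not complete. Shfl, an interferon-stimulated antiviral gene outside it that was chosen after its values were seen, rose from 385, 435 and 390 to 1563, 1150 and 800 (log2 change 1.49 ± 0.24, adjusted p = 0.00761).

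How many genes passed depended on the libraries and on whether replicates were paired. Without Yap siRNA replicate 1 the fit called 82 genes outside the interferon list, without negative siRNA replicate 3 it called 98, without Yap siRNA replicate 2 it called 122 and without negative siRNA replicate 2 it called 191. Without Wwtr1 siRNA replicate 2, a library outside this comparison, it called 264, and without negative siRNA replicate 1 it called 284. Without double knockdown replicate 3 it called 671. With the replicate number as a block it called 770 over 12 libraries and 2207 over the 6 libraries of this comparison alone. Over all genes tested, the interferon list included, the first of these fits called 4.52% higher and 2.85% lower and the second 10.6% and 9.04%. Of the 570 genes called without the block, 562 and 564 were called in these blocked fits. Of 90 named genes 89 were called, and the other is Wwtr1. The direction of the 89 did not turn under any alternative run. Their groups did not overlap, so leaving out 1 library could not turn it. Without the intensity trend 44 of the 89 calls were lost, among them those of Ccn1, Ccn2, Postn, Tgfb2, Tgfb3 and Edn1, and with the 6 libraries alone 20 were.

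Among genes that averaged at least 100 and whose groups did not overlap, the deepest fall after Yap1 was that of Myh1, a fast skeletal myosin heavy chain, read at 302, 227 and 480 with negative siRNA and at 68.6, 106 and 131 with Yap siRNA. Its log2 change was -1.69 ± 0.31 (adjusted p = 0.0136). Next came Il1rl1, the receptor for interleukin 33, at 5335, 6672 and 8243 against 1821, 2383 and 3080, a log2 change of -1.49 ± 0.29 (adjusted p = 0.0151). The replicates of both genes spread widely, and the highest Yap siRNA library stayed below the lowest negative siRNA library. Both calls were lost without negative siRNA replicate 3 or without Yap siRNA replicate 1, that of Il1rl1 also without Yap siRNA replicate 2, with log2 changes from -1.94 to -1.40 and from -1.67 to -1.29 over the 12 fits.

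The 12 largest falls by this rule also held Itga6, Lims2, Aif1l and Kank4, which belong to no list tested here. Itga6, the integrin alpha 6 chain of laminin receptors, was at 3071, 3318 and 4772 in the negative siRNA libraries and at 1092, 1505 and 1499 in the Yap siRNA libraries (log2 change -1.43 ± 0.19, adjusted p = 0.00392). Lims2, a LIM-domain partner of integrin-linked kinase, was at 2117, 1899 and 2512 against 899, 798 and 736 (-1.42 ± 0.14, adjusted p = 0.000482). Aif1l, an actin-binding protein, was at 1627, 1800 and 1750 against 699, 832 and 752 (-1.18 ± 0.12, adjusted p = 0.000793). The groups of each gene were well apart, and these 3 genes were called in all 12 fits that left out 1 library. Kank4, of a family of adhesion-linked scaffold proteins, was at 480, 481 and 352 against 163, 200 and 176 (-1.27 ± 0.26, adjusted p = 0.0197). The Kank4 call was lost without replicate 1 or 2 of either group, with log2 changes from -1.42 to -1.20. Itgb1, the integrin beta 1 chain, chosen after its values were seen, was not called (-0.44 ± 0.13, adjusted p = 0.0736), though its groups did not overlap and the block with 6 libraries called it lower (adjusted p = 0.000339).

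The remaining large falls were Fam107b (2120, 2092 and 3262 against 814, 820 and 1402), Gcnt2, a glycosyltransferase (835, 1072 and 1086 against 452, 391 and 514), and Nox4, an NADPH oxidase that makes hydrogen peroxide. Nox4 was at 963, 871 and 1044 with negative siRNA and at 412, 452 and 548 with Yap siRNA, with log2 change -1.03 ± 0.19 (adjusted p = 0.0123). The log2 changes of Fam107b and Gcnt2 were -1.32 ± 0.25 and -1.14 ± 0.23. The libraries of the groups did not overlap in any of the 3 genes, which the rule for these falls required. Each of the 3 calls was lost without negative siRNA replicate 3 or Yap siRNA replicates 1 or 2, and that of Gcnt2 also without negative siRNA replicate 2, with Nox4 between -1.15 and -0.94, Fam107b between -1.58 and -1.11 and Gcnt2 between -1.26 and -1.04.

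**Figure D2:**
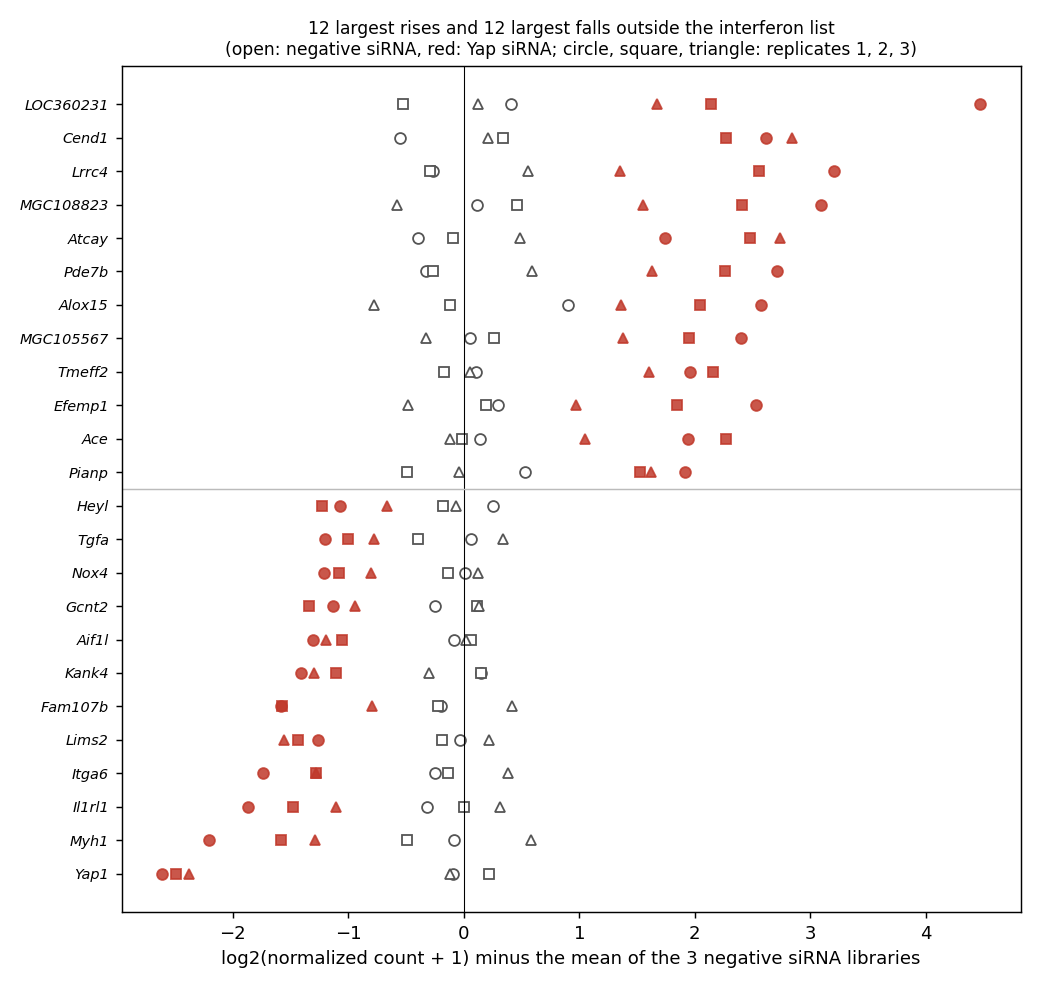
The 12 largest rises and the 12 largest falls outside the interferon list taken from the called genes that averaged at least 100 and whose groups did not overlap. The x axis is log2 of the normalized count plus 1, minus the mean of the 3 negative siRNA libraries, with open symbols for negative siRNA, red for Yap siRNA and circle, square and triangle for replicates 1, 2 and 3. Replicates of Lims2 and Aif1l lie close together and those of Myh1 spread widely, and in 9 of the 12 rises Yap siRNA replicate 3 was the lowest of its group.

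Heyl and Notch3, which belong to the Notch pathway, fell, and no list of that pathway was tested. Heyl, a Notch-induced repressor, was at 7886, 5854 and 6310 with negative siRNA and at 3157, 2830 and 4170 with Yap siRNA (log2 change -0.99 ± 0.17, adjusted p = 0.00921). Notch3, a receptor of mural cells that was the 1 call among 10 smooth muscle and pericyte markers (10% lower, against 1.78% of all genes), was at 17590, 16110 and 20420 against 9076, 10610 and 13300 (-0.72 ± 0.15, adjusted p = 0.0225). The ligand Jag1, chosen after its values were seen, was at 7094, 8567 and 10150 against 3272, 4396 and 5714 (-0.97 ± 0.19, adjusted p = 0.0159). Every Yap siRNA library was below every negative siRNA library in the 3 genes. The summed smooth muscle and pericyte markers were lower in the same way, but Notch3 is part of that sum. It made up 17590 of 49730 in negative siRNA replicate 1. Of those 10 markers, 3 were higher and 3 lower without overlap. Hey1 and Hey2, related Notch-induced repressors, had log2 changes of -0.90 and -0.53 and were not called (adjusted p = 0.0626 and 0.171), and Hey2 was called with the replicate block over 12 libraries (adjusted p = 0.0261). Notch2 and Hes1, a further Notch-induced repressor, had changes of 0.05 and 0.13 (adjusted p = 0.855 and 0.507). These 4 genes were also chosen after their values were seen. The Heyl call was lost without Yap siRNA replicate 1, and that of Notch3 without replicate 1 or 3 of negative siRNA or replicate 1 or 2 of Yap siRNA, with log2 changes from -1.15 to -0.86 and from -0.87 to -0.60.

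The called readouts of Yap were all lower. Of 19 genes of the Yap signature that were tested, 8 fell, none rose, 11 were not called, 5 values were above 0 and the median log2 change was -0.475, against -0.0041 over all genes tested and 1.78% of them called lower. Lats2, the Hippo kinase that acts on Yap, was at 7203, 7334 and 8033 with negative siRNA and at 3877, 4654 and 5025 with Yap siRNA (log2 change -0.74 ± 0.09, adjusted p = 0.00336). Fjx1, a Golgi kinase of the Fat and Dachsous branch, was at 1880, 2214 and 2446 against 1166, 1198 and 1286 (-0.83 ± 0.14, adjusted p = 0.00998). Neither gene overlapped between the groups.

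Ccn2 and Ccn1, which encode secreted CCN proteins, fell as well. Ccn2, or connective tissue growth factor, was at 104100, 111600 and 134800 in the negative siRNA libraries and at 58480, 62470 and 80260 in the Yap siRNA libraries (log2 change -0.81 ± 0.19, adjusted p = 0.0342). Ccn1 was at 44370, 45690 and 50350 against 29780, 33070 and 35330 (-0.52 ± 0.13, adjusted p = 0.0407). Ccn3, Ccn4 and Ccn5, of the same family and chosen after their values were seen, had changes of -0.46 ± 0.24, -0.28 ± 0.15 and -0.39 ± 0.15 and were not called (adjusted p = 0.325, 0.34 and 0.174), while the block with 6 libraries called the 3 lower (adjusted p = 0.000171, 0.0365 and 0.000761). Ccn1 and Ccn2 fell by a modest amount and from a high level, and with replicates of one number compared with each other the Ccn2 changes lay between -0.84 and -0.75. The other called members were Tgfb2, Ankrd1, Nuak2 and Amotl2, with log2 changes of -0.92, -0.64, -0.60 and -0.47. Axl and Ccdc80, also members, had changes of 0.14 and -0.01 and were not called (adjusted p = 0.484 and 0.975). Lats2 was called in all 12 fits without 1 library. Ccn1, Ccn2 and Amotl2 lost their calls without any 1 of the 3 negative siRNA libraries, Yap siRNA replicates 1 or 2 or Wwtr1 siRNA replicate 2, and Fjx1 without negative siRNA replicate 3 or Yap siRNA replicate 1. Over the 12 fits Ccn2 ranged from -0.94 to -0.70, Ccn1 from -0.57 to -0.45, Amotl2 from -0.55 to -0.40 and Fjx1 from -0.94 to -0.75. Without Yap siRNA replicate 1 or negative siRNA replicate 3, 1 signature gene was called.

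Within the Hippo pathway list, 4 of 28 genes tested fell (14.3%, against 1.78% of all genes) and 2 rose (7.14%, against 3.02%). Besides Lats2, Fjx1 and Amotl2 the fall was in Ajuba, a LIM protein that binds Lats kinases, at 4357, 4130 and 5112 against 2417, 2456 and 3114 (log2 change -0.77 ± 0.12, adjusted p = 0.00753). The Ajuba groups did not overlap and its call stood in all 12 fits. The rises were in Dchs1, the Dachsous cadherin (0.37 ± 0.09, adjusted p = 0.0413), and Taok3, a kinase (0.37 ± 0.08, adjusted p = 0.0205). The TEAD genes Tead1, Tead2 and Tead3 had log2 changes of -0.22, -0.37 and -0.15 and were not called (adjusted p = 0.639, 0.114 and 0.44). With the 6 libraries and the replicate block, 13 genes of the list were lower and 3 higher, while without any 1 of the negative siRNA libraries or Yap siRNA replicates 1 or 2 the list had 3 calls.

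Matrix genes did not move as a block. Of 23 collagen chains tested, 1 was called (4.35% higher, against 3.02% of all genes): Col18a1, the precursor of endostatin, at 8909, 8730 and 6778 with negative siRNA and 13600, 16010 and 11800 with Yap siRNA (log2 change 0.76 ± 0.13, adjusted p = 0.00857). The Yap siRNA libraries all lay above the negative siRNA libraries, and the call stood in all 12 fits without 1 library. The list as a whole leaned upward. Its median was 0.259, 19 of the 23 values were above 0, and 9 chains (39.1%) did not overlap and were higher, against 13.5% of all genes. The main fibrillar chains were among those not called. Col1a1 was at 1645000, 1380000 and 1467000 against 1861000, 1749000 and 1753000 (0.26 ± 0.17, adjusted p = 0.447), and Col3a1 at 688700, 547600 and 449100 against 771700, 817600 and 700200 (0.46 ± 0.26, adjusted p = 0.355). In the fit of the 6 libraries with the replicate block, 10 chains were called higher and 1 lower, Col1a1 (adjusted p = 0.0345) and Col3a1 (adjusted p = 0.00674) among the higher. Both genes were chosen after their values were seen.

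The enzymes that modify and fold collagen had more calls. Of 23 tested, 5 rose (21.7%, against 3.02% of all genes) and 1 fell (4.35%, against 1.78%). Fkbp10, a prolyl isomerase and chaperone, was at 13660, 12350 and 12640 against 17520, 16030 and 17080 (log2 change 0.39 ± 0.07, adjusted p = 0.0114). P3h3 and Crtap, of the prolyl 3-hydroxylase family and its complex, rose by 0.35 ± 0.06 and 0.42 ± 0.08 (adjusted p = 0.0129 and 0.0159). The lysyl hydroxylase Plod1 and P3h1 rose by 0.33 ± 0.06 and 0.31 ± 0.07. The groups of Fkbp10, P3h3 and Crtap did not overlap, and the spread between replicates was small beside the change. P4ha3, a prolyl 4-hydroxylase subunit, was at 3509, 3452 and 3739 against 2890, 2689 and 2822 (-0.35 ± 0.08, adjusted p = 0.033). Fkbp10 and P3h3 lost their calls without negative siRNA replicate 3 or Yap siRNA replicate 1. Crtap lost its call without negative siRNA replicates 1 or 3 or Yap siRNA replicates 1 or 2, and P4ha3 in 7 of the 12 fits, among them all 6 that left out a library of this comparison. The log2 changes stayed within 0.36 to 0.43, 0.32 to 0.40, 0.39 to 0.44 and -0.37 to -0.31. Without negative siRNA replicate 3 or Yap siRNA replicate 1, no gene of the list was called.

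Proteases of the matrix rose where they were called, in 4 of 47 genes tested (8.51%, against 3.02% of all genes). Htra1, a secreted serine protease, was at 15640, 15740 and 14790 against 23240, 23070 and 21810 (log2 change 0.56 ± 0.10, adjusted p = 0.00955). Ctsk, or cathepsin K, was at 1734, 1807 and 1274 against 2900, 2604 and 2399 (0.73 ± 0.15, adjusted p = 0.0191). The changes of Mmp17, a membrane-bound metalloproteinase, and Adamts4, an aggrecanase, were 0.92 ± 0.22 and 0.73 ± 0.16 (adjusted p = 0.0389 and 0.0291). No protease or inhibitor of the list was called lower, and none of the 4 overlapped between the groups. Of the list, 17 genes (36.2%) did not overlap and were higher, against 13.5% of all genes. Htra1 lost its call without Yap siRNA replicate 1, Ctsk without that library, Yap siRNA replicate 2 or negative siRNA replicate 3, and the other calls also without negative siRNA replicates 1 or 2, that of Mmp17 without Wwtr1 siRNA replicate 2 too. Over these fits the ranges were 0.53 to 0.59 for Htra1, 0.57 to 0.82 for Ctsk, 0.71 to 1.07 for Mmp17 and 0.57 to 0.86 for Adamts4. The replicate block over 12 libraries called 8 genes of the list higher and 2 lower.

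Among matricellular and adhesive glycoproteins, Postn moved against the CCN genes. Periostin, a matricellular protein of activated fibroblasts, was at 98330, 119000 and 74310 with negative siRNA and at 156800, 180100 and 141500 with Yap siRNA (log2 change 0.73 ± 0.17, adjusted p = 0.0334), without overlap. Ccn1 and Ccn2 were the 2 members that fell among 33 tested (6.06%, against 1.78% of all genes), Postn was the 1 that rose (3.03%, against 3.02%), and the median of the list was 0.046. In the remaining matrix lists 1 gene each was called, of 17 elastic fibre genes (5.88% higher) and 29 proteoglycan and hyaluronan genes (3.45% higher), against 3.02% of all genes, and of 16 basement membrane genes (6.25% lower), against 1.78%. The block with 6 libraries called 7 elastic fibre genes higher (41.2%) and 4 lower (23.5%), against 10.6% and 9.04% of all genes. It called 8 proteoglycan and hyaluronan genes higher and 3 lower, and 2 basement membrane genes each way. Efemp1, or fibulin 3, rose from 64.7, 60.0 and 37.2 to 307, 192 and 104 (1.78 ± 0.43, adjusted p = 0.0396). Prelp, a small leucine-rich proteoglycan, rose from 4192, 3001 and 3270 to 5945, 4909 and 5390 (0.64 ± 0.13, adjusted p = 0.0208). Lamc1, the laminin gamma 1 chain, fell from 55670, 58140 and 59450 to 35660, 44610 and 46270 (-0.46 ± 0.11, adjusted p = 0.0354). In the 3 genes the groups were separate, with Yap siRNA replicate 3 nearest to the controls for Efemp1 and Lamc1. These calls rested on few libraries. Postn, Efemp1, Prelp and Lamc1 lost theirs in 5, 7, 3 and 6 of the 12 fits, each without negative siRNA replicate 3 and without Yap siRNA replicate 1, at log2 changes within 0.55 to 0.89, 1.41 to 2.19, 0.54 to 0.79 and -0.53 to -0.35.

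Contractile genes of the myofibroblast leaned downward with no call in the fit of all 12 libraries without a block. None of 24 tested passed in limma or in edgeR, 6 had an unadjusted p under 0.05 and DESeq2 called 3. Limma called 4 without double knockdown replicate 3, 2 with the 6 libraries alone, 1 with genes of a mean of at least 100 and 1 with the replicate block over 12 libraries. Acta2, smooth muscle actin, was at 249800, 251400 and 338700 against 147900, 142900 and 200800, and its log2 change of -0.78 ± 0.23 missed the threshold (adjusted p = 0.0847). Tagln, or transgelin, was at 147600, 138500 and 187600 against 107700, 104600 and 136200 (-0.44 ± 0.22, adjusted p = 0.3). The Yap siRNA libraries were all lower for both genes, and the replicates of one number moved alike, by -0.82 to -0.75 for Acta2 and by -0.46 to -0.41 for Tagln. The list had 19 of 24 values below 0 and a median of -0.267. In the 6 libraries with the replicate block, 14 members were lower and 3 higher, with Acta2 (adjusted p = 2.34e-05) and Tagln (adjusted p = 0.000271) lower and Des, or desmin, higher (0.42, adjusted p = 0.000991). Where Yap siRNA was added to Wwtr1 siRNA, in libraries apart from these, 12 of the 24 genes were called lower and 2 higher, against 10.1% and 9.75% of all genes.

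**Figure D3:**
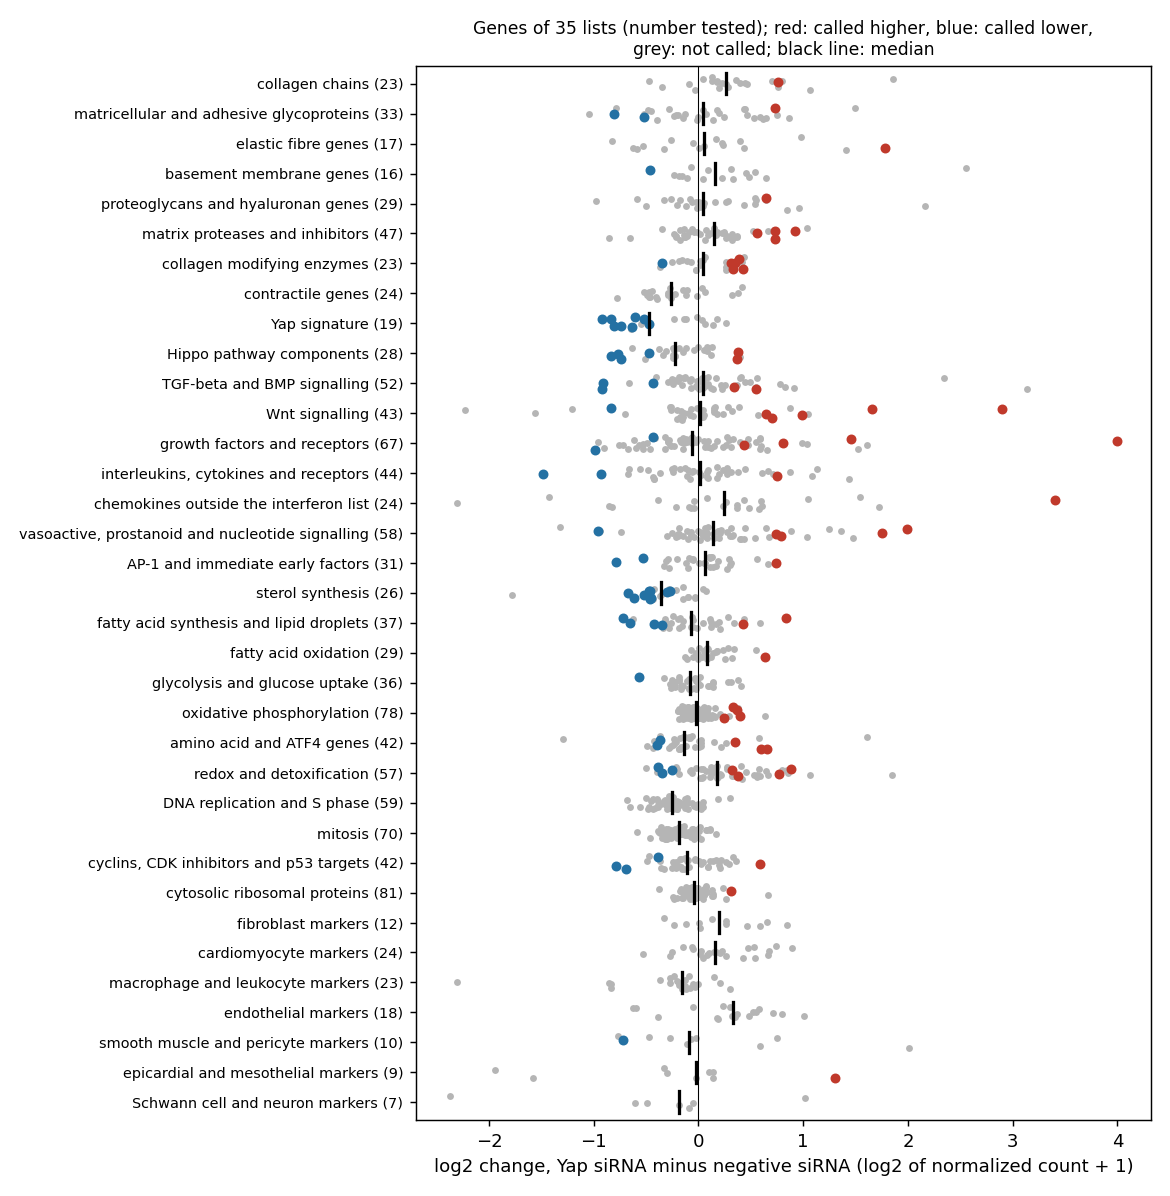
Log2 change with Yap siRNA (x axis) for each gene of 35 lists (y axis, with the number of genes tested), red where called higher, blue where called lower, grey where not called and with the median of each list as a black line. The Yap signature and sterol synthesis hold calls on the lower side alone, while DNA replication, mitosis and contractile genes have medians of -0.248, -0.188 and -0.267 and no call.

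Tgfb3 and Tgfb2, ligands of the TGF-beta family, fell. Tgfb3 was at 39960, 35120 and 56400 with negative siRNA and at 20400, 20350 and 28550 with Yap siRNA (log2 change -0.91 ± 0.21, adjusted p = 0.0342). Tgfb2 was at 5072, 6418 and 8691 against 2821, 3217 and 4605 (-0.92 ± 0.22, adjusted p = 0.0387). Replicate 3 was the highest in both groups for both genes, and the highest Yap siRNA library was still under the lowest negative siRNA library. Tgfb1 was at 7174, 6783 and 7479 against 8300, 6373 and 8326, which overlap (0.09 ± 0.12, adjusted p = 0.741). Of 52 genes tested in the TGF-beta and BMP list, 3 fell (5.77%, against 1.78% of all genes) and 2 rose (3.85%, against 3.02%), the others being the ubiquitin ligase Smurf1 (-0.43 ± 0.11), the BMP antagonist Nbl1 (0.55 ± 0.12) and the signal transducer Smad3 (0.34 ± 0.08). The list's median was 0.041. Without negative siRNA replicate 3 or Yap siRNA replicate 1 no gene of the list was called. The Tgfb3 and Tgfb2 changes lay between -1.08 and -0.72 and between -1.12 and -0.72 over the fits without 1 library, and those of Smurf1 and Nbl1 between -0.53 and -0.37 and between 0.46 and 0.68. Smurf1 lost its call in 8 of the 12 fits and was not called by edgeR.

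Among Wnt genes 3 secreted inhibitors rose. Sfrp2 was at 104, 85.0 and 62.0 against 453, 209 and 184 (log2 change 1.65 ± 0.31, adjusted p = 0.0146), Sfrp1 at 1592, 1241 and 1624 against 2321, 2000 and 2986 (0.70 ± 0.18, adjusted p = 0.0447) and Frzb at 467, 232 and 321 against 808, 521 and 645 (0.99 ± 0.24, adjusted p = 0.0412). Every Yap siRNA library of the 3 genes was above every negative siRNA library. The receptor Fzd4 fell from 4566, 4749 and 5983 to 2240, 2822 and 3646 (-0.83 ± 0.19, adjusted p = 0.0345). In all, 5 of 43 Wnt genes tested rose (11.6%, against 3.02%) and 1 fell (2.33%, against 1.78%). The other rises were in Nkd1, a Wnt-induced inhibitor (0.64 ± 0.15), and in Wnt16, from 5.13, 0 and 0 to 11.3, 10.7 and 16.8, too few reads for a fold. The 6 libraries with the replicate block did not call Wnt16 (limma, adjusted p = 0.115). Nkd1 and Wnt16 were chosen after their values were seen, as were the further called members of other lists that are given below or above by their change alone. Sfrp2 lost its call without negative siRNA replicate 3, with changes from 1.25 to 1.90 over the 12 fits. Fzd4, Frzb and Sfrp1 lost theirs in 6, 9 and 10 of the 12 fits, with changes within -1.01 to -0.66, 0.74 to 1.24 and 0.55 to 0.84, and without negative siRNA replicate 3 no gene of the list was called.

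Of 67 growth factor and receptor genes tested, 4 rose (5.97%, against 3.02% of all genes) and 2 fell (2.99%, against 1.78%). Hgf, hepatocyte growth factor, was at 179, 177 and 110 with negative siRNA and at 391, 489 and 381 with Yap siRNA (log2 change 1.46 ± 0.21, adjusted p = 0.0044). Its groups were well apart and the call stood in all 12 fits. Kitlg, or stem cell factor, rose from 459, 421 and 381 to 572, 961 and 720 (0.81 ± 0.19, adjusted p = 0.0389). Tgfa, a ligand of the EGF receptor, fell from 537, 389 and 648 to 223, 256 and 300 (-0.99 ± 0.24, adjusted p = 0.0402), and Vegfc from 2196, 2288 and 2651 to 1745, 1585 and 1962 (-0.43 ± 0.09, adjusted p = 0.0272). None of these overlapped. Fgf7 was also called, from 0 in the 3 negative siRNA libraries to 9.22, 21.4 and 16.8, a handful of reads for which no fold is given, and Pdgfrl, a PDGF receptor-like protein, rose by 0.43 ± 0.09. The 6 libraries with the replicate block did not call Fgf7 (limma, adjusted p = 0.0506). The Kitlg, Tgfa and Vegfc calls were lost in 6, 6 and 4 of the 12 fits, each without negative siRNA replicate 3 and Yap siRNA replicate 2 among them, at changes within 0.61 to 0.99, -1.19 to -0.82 and -0.51 to -0.35.

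Of 44 interleukin and cytokine genes tested, Il1rl1 and Tnfrsf11b fell (4.55%, against 1.78% of all genes). Tnfrsf11b, the decoy receptor osteoprotegerin, was at 10520, 11510 and 10790 against 5280, 5556 and 6445 (log2 change -0.93 ± 0.12, adjusted p = 0.00372), with the groups far apart, and kept its call in all 12 fits. Edn1, the vasoconstrictor endothelin 1, was the 1 fall among 58 vasoactive and prostanoid genes (1.72%, against 1.78% of all genes), at 2258, 2265 and 3265 against 1078, 1239 and 1696 (-0.96 ± 0.24, adjusted p = 0.0463). The 4 rises (6.9%, against 3.02%) included Ace, angiotensin-converting enzyme, from 89.3, 80.0 and 74.4 to 314, 394 and 169 (1.75 ± 0.31, adjusted p = 0.0104), and Ptger4, a prostaglandin E2 receptor, from 370, 415 and 237 to 617, 594 and 508 (0.78 ± 0.18, adjusted p = 0.0301). P2ry1, an ADP receptor, rose by 0.74 ± 0.14. Alox15, a lipoxygenase, rose from 88.3, 43.0 and 26.9 to 283, 196 and 122 (1.99 ± 0.47, adjusted p = 0.0387). No group overlapped its control. Among 24 chemokines outside the interferon list the call was Cxcl13 (4.17% higher, against 3.02% of all genes), from 0, 3.00 and 0 to 22.5, 15.0 and 11.5, too few reads for a fold. The 6 libraries with the replicate block did not call Cxcl13 (limma, adjusted p = 0.0606). Ace lost its call without negative siRNA replicate 3 or Yap siRNA replicate 1. Ptger4, Alox15 and Edn1 lost theirs in 3, 6 and 7 of the 12 fits, these libraries and Yap siRNA replicate 2 among them, and Alox15 was not called by edgeR. The changes lay within 1.49 to 2.10 for Ace, 0.54 to 0.95 for Ptger4, 1.60 to 2.44 for Alox15 and -1.14 to -0.78 for Edn1.

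Immediate early genes were divided. Maff, a small Maf transcription factor, fell from 982, 793 and 975 to 587, 519 and 487 (log2 change -0.78 ± 0.13, adjusted p = 0.00914) and kept its call in all 12 fits. Dusp1, a MAP kinase phosphatase, fell from 5602, 4526 and 5663 to 3993, 3191 and 3748 (-0.53 ± 0.12, adjusted p = 0.0329). Nr4a1, an orphan nuclear receptor, rose from 1192, 639 and 798 to 1505, 1546 and 1229 (0.74 ± 0.19, adjusted p = 0.0466), where the lowest Yap siRNA library was just above the highest negative siRNA library. These were the 3 calls among 31 genes, 1 higher (3.23%, against 3.02% of all genes) and 2 lower (6.45%, against 1.78%). The Dusp1 call was lost in 6 and the Nr4a1 call in 9 of the 12 fits, both without negative siRNA replicate 3 or Yap siRNA replicates 1 or 2, with changes within -0.63 to -0.44 and 0.54 to 0.99. edgeR did not call Nr4a1. Upk1b, a uroplakin of mesothelium, was the call among 9 epicardial and mesothelial markers (11.1% higher, against 3.02% of all genes), from 207, 98.0 and 98.2 to 490, 280 and 223 (1.31 ± 0.33, adjusted p = 0.0467), and it too was lost in 9 of the 12 fits and by edgeR, with changes from 0.98 to 1.66.

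Sterol synthesis genes fell where they were called. Of 26 genes tested, 9 fell (34.6%, against 1.78% of all genes), none rose and the median log2 change was -0.357. Fdps, farnesyl diphosphate synthase, was at 17920, 16400 and 17680 with negative siRNA and at 12030, 10920 and 13420 with Yap siRNA (-0.52 ± 0.08, adjusted p = 0.00805). Msmo1, a sterol C4 demethylase, was at 7095, 7809 and 7901 against 4790, 4306 and 5230 (-0.67 ± 0.15, adjusted p = 0.0286). Idi1, isopentenyl diphosphate isomerase, was at 3500, 3353 and 3210 against 2127, 2019 and 2433 (-0.62 ± 0.15, adjusted p = 0.0387). The groups were separate in each, as they were on the lower side for 17 of the 26 genes (65.4%, against 12.6% of all). Cyp51, Fdft1, Lss and Sc5d, enzymes of later steps, also fell, with changes of -0.46 ± 0.10, -0.46 ± 0.09, -0.30 ± 0.07 and -0.27 ± 0.07. Dhcr7, the last reductase of cholesterol synthesis, changed by -0.47 ± 0.12 (adjusted p = 0.0466).

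The falls in sterol genes were smaller than those in the Wwtr1 siRNA libraries. The medians of the list were -0.357 with Yap siRNA and -0.884 with Wwtr1 siRNA, both from the same negative siRNA libraries. In a direct comparison of the Yap with the Wwtr1 siRNA libraries, 18 of the 26 were higher with Yap siRNA and 2 lower, against 4.57% and 4.22% of all genes. Hmgcs1, HMG-CoA synthase, changed by -0.37 with Yap and -1.64 with Wwtr1 siRNA (adjusted p of the difference 0.000321). Fdps was called in all 12 fits that left out 1 library, while Msmo1, Idi1 and Dhcr7 lost their calls in 5, 6 and 10 of them, each without any 1 of the negative siRNA libraries or Yap siRNA replicates 1 or 2. Their changes lay within -0.74 to -0.60, -0.69 to -0.56 and -0.53 to -0.40. Without Yap siRNA replicate 1, 1 sterol gene was called, and with the replicate block over 12 libraries Dhcr7 was not called while 11 of the list were.

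**Figure D4:**
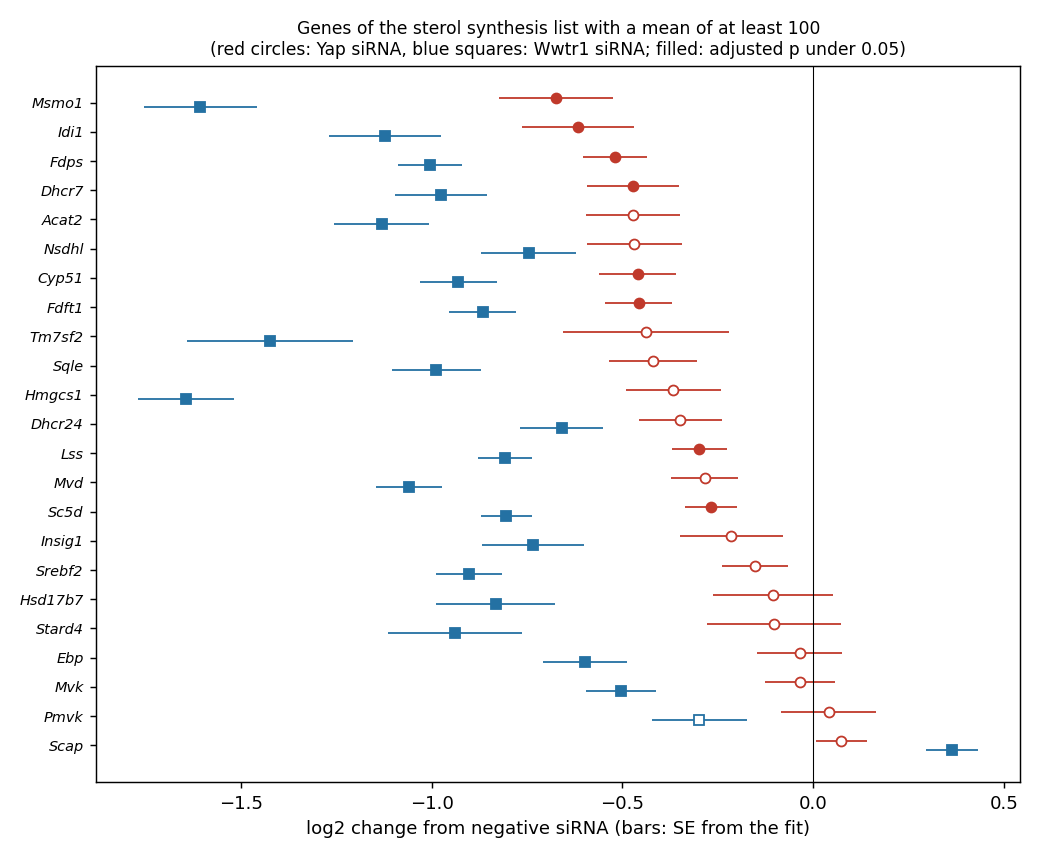
Log2 change from negative siRNA (x axis, with SE) of 23 genes of the sterol synthesis list with a mean of at least 100, as red circles for Yap siRNA and blue squares for Wwtr1 siRNA, filled where the adjusted p was under 0.05. Of the 23 genes, 22 lie further to the left with Wwtr1 siRNA, and Scap lies further to the left with Yap siRNA.

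In the list of fatty acid synthesis and lipid droplets, 4 of 37 genes fell (10.8%, against 1.78% of all genes) and 2 rose (5.41%, against 3.02%). Elovl6, an elongase, was at 1037, 1280 and 1066 against 680, 717 and 750 (log2 change -0.65 ± 0.11, adjusted p = 0.0108), and Fads3, of the fatty acid desaturase family, at 9811, 9680 and 11600 against 5956, 5586 and 7453 (-0.72 ± 0.13, adjusted p = 0.0105). Acsl3, an acyl-CoA synthetase, and Acly, ATP citrate lyase, fell by 0.43 ± 0.07 and 0.35 ± 0.07. Abcg1, a cholesterol exporter, rose from 307, 386 and 329 to 730, 649 and 472 (0.84 ± 0.21, adjusted p = 0.045), and Plin2, a lipid droplet coat protein, from 3675, 3130 and 3045 to 5092, 4204 and 3964 (0.43 ± 0.11, adjusted p = 0.047). In Elovl6, Fads3, Abcg1 and Plin2 the groups did not overlap. Cpt1a, which carries fatty acids into mitochondria, was the call among 29 oxidation genes (3.45% higher, against 3.02% of all genes), from 1069, 976 and 1017 to 1511, 1635 and 1616 (0.64 ± 0.15, adjusted p = 0.0353). Elovl6 lost its call without Yap siRNA replicate 1 and Fads3 without that library, Yap siRNA replicate 2 or negative siRNA replicate 3. Cpt1a, Abcg1 and Plin2 lost theirs in 7, 8 and 9 of the 12 fits, these libraries among them. The 5 changes lay within -0.71 to -0.56, -0.84 to -0.63, 0.61 to 0.67, 0.71 to 1.02 and 0.32 to 0.51, in the order Elovl6, Fads3, Cpt1a, Abcg1 and Plin2.

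Few genes of energy metabolism were called. Slc2a3, the glucose transporter GLUT3, was the 1 call among 36 glycolysis genes (2.78% lower, against 1.78% of all genes), at 821, 704 and 917 against 530, 513 and 597 (log2 change -0.57 ± 0.14, adjusted p = 0.0407). Of the glycolysis list 25 values were below 0, 9 genes (25%) were lower without overlap, against 12.6% of all genes, and the block with 6 libraries called 8 lower and 4 higher. In oxidative phosphorylation 4 of 78 genes rose (5.13%, against 3.02%) and none fell, with a median of -0.028. They were Cox6b1, Atp5if1, Cox5b and Ndufv3, with changes of 0.39, 0.36, 0.33 and 0.24, and none overlapped. Cytosolic ribosomal protein genes had 1 call in 81 (1.23% higher, against 3.02% of all genes), Rpl8 at 24370, 25080 and 24380 against 32680, 27990 and 30810 (0.31 ± 0.07, adjusted p = 0.0302). The list leaned the other way, with 55 values below 0. Without overlap 13 of its genes (16%) were lower and 4 (4.94%) higher, against 12.6% and 13.5% of all genes. The block with 6 libraries called 7 lower and 2 higher, against 9.04% and 10.6% of all genes. Slc2a3, Cox5b and Atp5if1 lost their calls in 8 of the 12 fits each, Ndufv3 in 10, Rpl8 in 6 and Cox6b1 in 4, among them those without negative siRNA replicate 3 or Yap siRNA replicate 1. Without either library no oxidative phosphorylation gene was called, and Ndufv3 was not called by edgeR. Slc2a3 ranged from -0.67 to -0.48 and Rpl8 from 0.26 to 0.37.

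Stress and one-carbon genes included some of the firmest calls. Hmox1, heme oxygenase 1, was at 2766, 2414 and 2272 with negative siRNA and at 5747, 4155 and 4009 with Yap siRNA (log2 change 0.89 ± 0.13, adjusted p = 0.00459). Aldh2, mitochondrial aldehyde dehydrogenase, was at 7165, 7084 and 7299 against 9428, 9135 and 9517 (0.38 ± 0.05, adjusted p = 0.00393), and Shmt2, a mitochondrial serine hydroxymethyltransferase, at 4991, 4854 and 5310 against 7147, 7359 and 8497 (0.60 ± 0.11, adjusted p = 0.0117). The groups were wide apart in these 3 genes and all 3 were called in each of the 12 fits. Sod3, the extracellular superoxide dismutase, rose from 4703, 3328 and 4336 to 7161, 6292 and 7408 (0.77 ± 0.14, adjusted p = 0.0119), and Prdx6, a peroxiredoxin, fell from 13530, 12880 and 14210 to 10850, 9603 and 10570 (-0.39 ± 0.08, adjusted p = 0.0162). In the redox and detoxification list 4 of 57 genes rose (7.02%, against 3.02% of all genes), 3 fell (5.26%, against 1.78%), and 44 values were above 0. The others called were Gpx7 (0.32 ± 0.07), Txnrd1 (-0.35 ± 0.08) and Prdx1 (-0.25 ± 0.07), enzymes of thiol or peroxide metabolism.

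The genes of amino acid metabolism and the ATF4 response had 3 rises (7.14%, against 3.02% of all genes) and 2 falls (4.76%, against 1.78%) among 42. Ddit4, an inhibitor of mTORC1 signalling, rose from 2235, 2007 and 1887 to 3400, 3594 and 2692 (log2 change 0.65 ± 0.14, adjusted p = 0.0295). Asns, asparagine synthetase, fell from 9251, 9737 and 9665 to 7264, 7019 and 7977 (-0.37 ± 0.09, adjusted p = 0.0447), and Vldlr from 18060, 17050 and 16860 to 11810, 13590 and 14130 (-0.40 ± 0.10, adjusted p = 0.0456). No overlap was seen in these genes. The remaining rises were Shmt2 and Gpt2, an alanine aminotransferase (0.35 ± 0.07). Sod3 lost its call without Yap siRNA replicate 1, Prdx6 without negative siRNA replicate 3 or Yap siRNA replicate 2, and Ddit4, Asns and Vldlr in 4, 8 and 9 of the 12 fits, each without negative siRNA replicate 3 or Yap siRNA replicates 1 or 2. The changes lay within 0.62 to 0.87 for Sod3, -0.43 to -0.34 for Prdx6, 0.57 to 0.78 for Ddit4, -0.42 to -0.33 for Asns and -0.45 to -0.32 for Vldlr. With the 6 libraries and the replicate block 6 genes of this list were higher and 16 lower.

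Cell cycle genes leaned downward and few passed the test. None of 59 DNA replication genes and none of 70 mitosis genes was called by edgeR or in the limma fit of all 12 libraries without a block. At an unadjusted p under 0.05 the counts were 8 and 7, and DESeq2 called 2 and 1. With genes of a mean of at least 100 limma called 1 replication gene. Without 1 library it called up to 3 replication genes and up to 1 mitosis gene. Yet 53 of the 59 and 62 of the 70 values were below 0, with medians of -0.248 and -0.188, and 27 replication genes (45.8%) and 19 mitosis genes (27.1%) were lower without overlap, against 12.6% of all genes. The usual proliferation markers, chosen here for their common use, moved little. Mki67 was at 5788, 6552 and 5859 with negative siRNA and at 4305, 6291 and 5547 with Yap siRNA (log2 change -0.19 ± 0.21, adjusted p = 0.676), and Top2a at 2912, 2793 and 2665 against 2164, 2334 and 2692 (-0.22 ± 0.13, adjusted p = 0.388). Both overlap, with the lowest level in Yap siRNA replicate 1. With the replicate block 2 replication and 5 mitosis genes were lower over 12 libraries and 19 and 15 over the 6, and none was higher.

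Of 42 genes in the cyclin, CDK inhibitor and p53 list 4 were called, 1 higher (2.38%, against 3.02% of all genes) and 3 lower (7.14%, against 1.78%). Ccnd1, or cyclin D1, rose from 3417, 2748 and 2544 to 4662, 4510 and 3880 (log2 change 0.59 ± 0.11, adjusted p = 0.0128). Gadd45b and Gadd45g, of the growth arrest and DNA damage family, fell from 1425, 1198 and 1458 to 877, 801 and 837 and from 1698, 1655 and 1870 to 1244, 952 and 859 (-0.69 ± 0.09 and -0.79 ± 0.15, adjusted p = 0.00392 and 0.0149). Btg1, an antiproliferative gene, fell from 3712, 3605 and 4359 to 2961, 2870 and 3087 (-0.38 ± 0.08, adjusted p = 0.0183). In each the groups were apart. Cdkn1a, the p21 inhibitor, was at 3858, 4589 and 6484 against 5311, 4625 and 5629 and overlapped (0.09 ± 0.19, adjusted p = 0.845). Gadd45b was called in all 12 fits. Gadd45g lost its call without negative siRNA replicate 3 or Yap siRNA replicate 2, and Ccnd1 and Btg1 without either of these or Yap siRNA replicate 1, with changes within -0.94 to -0.68, 0.50 to 0.71 and -0.44 to -0.30.

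The largest rises outside the interferon list started from low levels. Cend1, a regulator of neuronal cell cycle exit, rose from 41.1, 77.0 and 70.3 to 377, 296 and 441 (log2 change 2.58 ± 0.44, adjusted p = 0.00955), and Atcay, or caytaxin, from 108, 133 and 198 to 477, 791 and 949 (2.32 ± 0.54, adjusted p = 0.0354). Pde7b, a cAMP phosphodiesterase, rose from 14.4, 15.0 and 27.9 to 125, 91.0 and 58.7 (2.20 ± 0.36, adjusted p = 0.00857). Tmeff2, a transmembrane protein with follistatin-like domains, rose from 119, 98.0 and 115 to 431, 496 and 336 (1.91 ± 0.29, adjusted p = 0.0055), and Pianp, a neuronal membrane protein, from 153, 75.0 and 102 to 400, 306 and 327 (1.69 ± 0.27, adjusted p = 0.00798). The groups of these 5 genes did not come near each other, and lack of overlap was part of the rule that chose them. Pde7b, Tmeff2 and Pianp kept their calls in all 12 fits. Cend1 lost its call without Yap siRNA replicate 1 and Atcay in 7 fits, all 6 without a library of this comparison among them, with changes within 2.30 to 2.75 and 2.11 to 2.60.

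The other large rises were more uneven. LOC360231 went from 54.4, 28.0 and 44.4 to 922, 183 and 132 (log2 change 2.76 ± 0.71, adjusted p = 0.0474), so that Yap siRNA replicate 1 stood far above the other replicates, and the Wwtr1 siRNA mean of 270 had an SD of 268. Its change was 1.91 without Yap siRNA replicate 1 (adjusted p = 0.161) and its call was lost in 8 of the 12 fits. MGC108823 rose from 218, 277 and 134 to 1718, 1069 and 591 (2.35 ± 0.46, adjusted p = 0.0159) and MGC105567 from 98.5, 114 and 75.5 to 503, 370 and 248 (1.91 ± 0.35, adjusted p = 0.0136). Lrrc4, a synaptic adhesion protein, was near the lower limit at 3.08, 3.00 and 6.20 against 44.1, 27.8 and 11.5 (2.37 ± 0.49, adjusted p = 0.0213). The 3 unnamed loci are in none of the lists, and Yap siRNA replicate 1 was the highest library of the comparison in all 4 genes. The interferon list is not complete, and whether these 3 loci belong with it was not tested. With Wwtr1 siRNA, LOC360231, MGC108823 and MGC105567 changed by 2.25, 2.32 and 2.48, and Shfl by 1.69. MGC108823 and MGC105567 lost their calls without negative siRNA replicate 3 or Yap siRNA replicates 1 or 2, and Lrrc4 without replicates 1 or 2 of either group. Their changes lay within 1.98 to 2.75, 1.67 to 2.18 and 1.96 to 2.88, and the 6 libraries with the replicate block did not call Lrrc4.

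The Yap siRNA libraries were also compared directly with the Wwtr1 siRNA libraries. Of the 479 genes called outside the interferon list, 158 differed between these siRNAs, against 8.79% of all genes in that test. The Yap siRNA libraries that chose the 479 genes enter this test too, so nothing is read from that share. It was 58 of 269 rises (21.6%) and 100 of 210 falls (47.6%), a split that was not tested. Among the 12 largest falls, Aif1l changed by -1.18 with Yap siRNA and by -0.02 with Wwtr1 siRNA (adjusted p of the difference 0.000438), Lims2 by -1.42 and 0.07 (0.00026), Itga6 by -1.43 and -0.23 (0.00403), Nox4 by -1.03 and 0.28 (0.00217) and Heyl by -0.99 and 0.09 (0.00351). Lats2 and Ajuba, with -0.74 against -0.09 and -0.77 against -0.11, also differed (0.00206 and 0.00798). For Gcnt2, Fam107b and Tnfrsf11b the changes were -1.14 and -1.47, -1.32 and -1.05, and -0.93 and -0.91, and no difference was called (0.407, 0.551 and 0.941). Il1rl1 (-1.49 and -0.87), Myh1 (-1.69 and -0.60) and Tgfa (-0.99 and -0.28) were not called as different either (0.213, 0.0513 and 0.0908). Kank4 (-1.27 and -0.12) was (0.0189). Notch3 fell with Yap siRNA and was at 0.52 with Wwtr1 siRNA (0.00093), and Postn rose by 0.73 against -0.16 (0.00805). Among the 12 largest rises, Cend1 (2.58 and 2.00), MGC108823 (2.35 and 2.32), Pde7b (2.20 and 1.40) and Alox15 (1.99 and 0.74) were not called as different (0.47, 0.984, 0.196 and 0.128). Pianp (1.69 and 0.21, 0.00772) and Tmeff2 (1.91 and 0.78, 0.0337) did differ. The number of 158 was 94, 74 and 40 when negative siRNA replicates 1, 2 and 3 were left out in turn, 33 and 38 without Yap siRNA replicates 1 and 2, 99, 57 and 75 without Wwtr1 siRNA replicates 1, 2 and 3 and 247 without double knockdown replicate 3.

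The same siRNA was also given on a Wwtr1-depleted background. There the double knockdown was compared with Wwtr1 siRNA alone, in 6 libraries that hold none of the Yap or negative siRNA groups, though all 12 share one estimate of the spread. Of the 210 genes that fell, 201 had a value below 0 in this contrast and 145 (69%) were called lower, against 10.1% of all genes. Of the 269 that rose, 220 had a value above 0 and 122 (45.4%) were called higher, against 9.75%. Of the rises, 11 were called lower and 4 of the falls called higher. Yap1 itself changed by -1.78 ± 0.22 in these libraries, from 3169, 3151 and 3184 to 713, 739 and 1474, with double knockdown replicate 3 above the other replicates. Wwtr1 was not equally low in both groups, at 524, 550 and 637 with Wwtr1 siRNA and at 818, 731 and 1056 in the double knockdown (0.59 ± 0.13, adjusted p = 0.00804), and its part in this contrast was not tested. A difference in the effect of Yap siRNA between the backgrounds was called for 1.03% of all genes, which is not the share that differed. Cend1 (2.58 and 0.21) and Atcay (2.32 and -0.49) were not called in that term (limma, adjusted p = 0.101 and 0.107). Lims2 (-1.56), Aif1l (-1.26), Itga6 (-1.14), Nox4 (-1.98), Ccn2 (-1.40), Ccn1 (-1.28), Amotl2 (-1.44) and Vegfc (-1.09) were called lower (adjusted p from 7.58e-05 to 0.0022 for the first 4, and 0.00058, 0.000106, 4.7e-05 and 6.91e-05). Cend1 (0.21), MGC108823 (1.11) and Atcay (-0.49) were not called (adjusted p = 0.788, 0.111 and 0.57), while Pde7b (3.11), Alox15 (4.35) and Ace (2.84) were (0.000271, 0.000208 and 0.000188). Pde7b averaged 19.1, 91.6 and 52.6 with negative, Yap and Wwtr1 siRNA and 437 in the double knockdown. It reached the mean of 100 needed for naming only through the double knockdown, so nothing is read from its rise here. The Yap signature had 11 of 19 genes lower and 1 higher in this contrast, sterol synthesis 8 of 26 lower and 1 higher, collagen chains 4 of 23 lower and 3 higher and cytosolic ribosomal proteins 53 of 81 lower and 0 higher. The number of 267 genes called the same way in both contrasts was 54 and 64 without Yap siRNA replicates 1 and 2, 169, 126 and 56 without negative siRNA replicates 1, 2 and 3, 127 and 177 without Wwtr1 siRNA replicates 2 and 3 and 169 without double knockdown replicate 2.

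**Figure D5:**
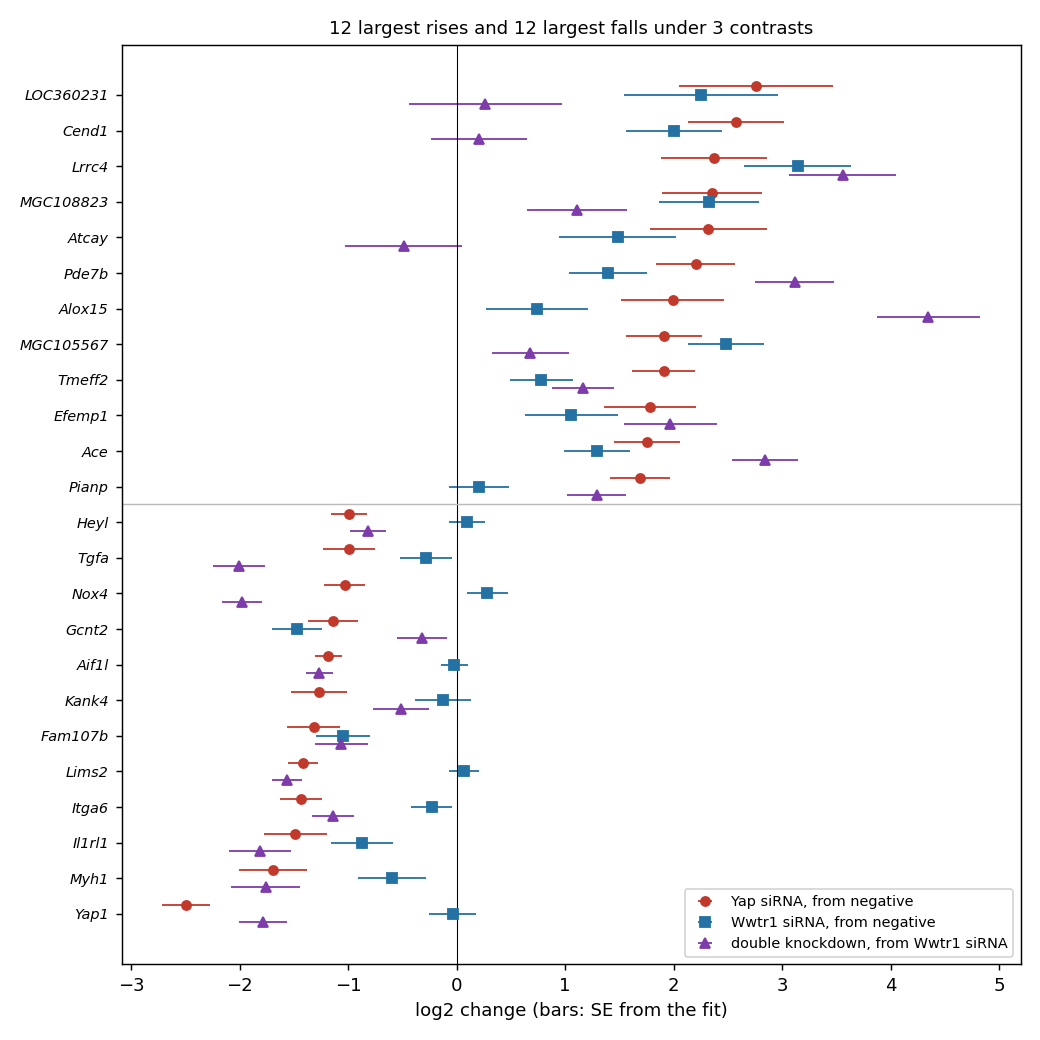
Log2 change (x axis, with SE) of the 12 largest rises and 12 largest falls under Yap siRNA from negative siRNA (red circles), Wwtr1 siRNA from negative siRNA (blue squares) and the double knockdown from Wwtr1 siRNA (purple triangles). Lims2, Aif1l, Nox4 and Heyl lie near 0 with Wwtr1 siRNA and below -0.8 in the other contrasts, and Cend1 and LOC360231 lie above 2 in the red and blue contrasts and near 0 in the purple one. Pde7b and Lrrc4 reached the mean of 100 needed for naming only through the double knockdown.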

How the data were processed

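RNA was sequenced from 12 libraries of rat neonatal cardiac fibroblasts, 3 for each of 4 siRNA groups (25 nM, 48 h, day 2 pups, separate litters per replicate). The series' design text names cardiac myocytes, while its title, its labels and the study's methods name fibroblasts. The authors trimmed reads with Trim Galore 0.6.5, aligned them with HISAT2 to rn6, assembled transcripts with Stringtie2 and used DESeq2. The deposited values are a normalized signal per gene, read counts divided by 1 size factor per library, and how the reads were counted and with which strand setting is not given in the sources used here. The deposited comparison tables hold fold changes and p-values of the authors and were not used. Dividing each library by the value of 1 read gave whole reads within 0.001 for 147252 of 147252 values (100%).

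Values were analysed as log2(normalized count + 1) with limma 3.58.1 (R 4.3.3), with an intensity trend, all 12 libraries in 1 fit, genes with a mean of at least 10, and Benjamini-Hochberg adjustment over all 11871 genes. A gene is called at an adjusted p of 0.05. Fold changes are on this log2 scale, which understates changes of low genes. Errors are standard errors from the fit unless named SD. Alternatives were other pseudocounts, filters and scaling, DESeq2 1.42.0 and edgeR 4.0.16 run on those whole reads, no trend, only the 6 libraries, the replicate block and leaving out each library. The fits were tested on simulated data.

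Named genes are Yap1, Wwtr1, Lats2, Fjx1 and Il1rl1, the 12 largest rises and 12 largest falls outside the interferon list taken from called genes that averaged at least 100 and whose groups did not overlap, and, of each of the 35 other lists, up to 4 called genes with the largest change that averaged at least 100. Members, lists and tests were chosen with earlier results of these data known. The methods state separate litters per replicate. Deviations from the group means of negative and Yap siRNA libraries with the same number correlated over genes at 0.144, 0.187 and 0.276 and those with other numbers at -0.171 to -0.006, so the numbers were taken as pairs. The fit from which calls are given has no block and leaves this pairing out. The paired fits are alternatives, and genes not called without the block, such as Acta2, can be called in them. Replicates of a group differed beyond sampling noise (chi-square per gene 30.4 to 45.5). Totals of recovered reads lay between 33890000 and 36280000 a library, so counting error is small except for genes with few reads. The siRNA label of the double knockdown names siRNAs against Wwtr1 only, while its sample titles name both genes. Both Yap1 and Wwtr1 are below the negative siRNA level in those libraries. Promoter windows are RefSeq sequences of GRCr8. A few named genes are not reported here.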

Additional observations from a re-analysis of the deposited data

Results flagged for a closer look

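The response to Yap siRNA differed between the 2 backgrounds for 7 named genes, by the interaction term of the fit (the effect of Yap siRNA on a Wwtr1-depleted background minus its effect on the negative control). Of all genes 1.03% were called in that term. Shmt2 rose by 0.60 on the control background and changed by -0.64 on the depleted one, a difference of -1.24 ± 0.15 (adjusted p = 0.00518). Ccnd1 went from 0.59 to -0.60, a difference of -1.19 ± 0.15 (adjusted p = 0.00524), and Rpl8 from 0.31 to -0.28, a difference of -0.58 ± 0.10 (adjusted p = 0.0196). In these 3 genes and in Btg1, which went from -0.38 to 0.46, a difference of 0.84 ± 0.11 (adjusted p = 0.00524), the sign changed. Htra1 rose by 0.56 and changed by -0.13, a difference of -0.69 ± 0.14 (adjusted p = 0.0401). Vegfc and Amotl2 fell on both backgrounds and further on the depleted one, by -0.43 and -1.09 and by -0.47 and -1.44, with differences of -0.66 ± 0.13 (adjusted p = 0.0432) and -0.97 ± 0.15 (adjusted p = 0.0155).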

How the results depend on the processing

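The count of genes called was 570 in all and 479 outside the interferon list, with 158 of the 479 differing from Wwtr1 siRNA and 267 called the same way when Yap siRNA was added to Wwtr1 siRNA. In the same order DESeq2 gave 1013, 904, 334 and 505, and limma with no trend 294, 236, 71 and 127. Under the replicate block, that is with libraries paired by number, the counts were 874, 770, 274 and 470, and with the block and only the 6 libraries of the comparison 2336 and 2207. Among named genes the block lost Dhcr7 over 12 libraries and Lrrc4 over 6, and it changed no other call. Of the 89 named calls 44 were lost with no trend, 20 with the 6 libraries alone, 5 by edgeR, 2 with a pseudocount of 10 and 1 with TMM. Leaving out each library in turn gave 111 to 764, 82 to 671, 33 to 247 and 54 to 365, and the Yap1 change lay between -2.55 and -2.38. The other pseudocounts, filters, TMM and edgeR kept these counts within 1.5 times, as did the 6 libraries alone for the first 2, the only ones that setting can give. Yap1 was called under every setting, and none of the 89 called named genes changed direction. As their groups did not overlap, leaving out 1 library could not change it. Wwtr1, not called, was above 0 without negative siRNA replicate 2 (0.01) and Yap siRNA replicate 1 (0.02). Of the 89 named genes called, 18 were called in all 12 fits without 1 library, 13 were lost in 1 or 2 and 58 in 3 or more. Most were lost without Yap siRNA replicate 1 (67), negative siRNA replicate 3 (64) or Yap siRNA replicate 2 (58). No scaling moved the median of all genes by over 0.1.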
